A study of Homo sapiens with 2 samples.

Results

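The genes described here are 10 antagonists and feedback targets of Wnt/beta-catenin signalling: DKK1, NKD1, RNF43, ZNRF3, AXIN2, LGR5, NOTUM, TCF7, LEF1 and SP5. They were taken by name, with every probe set of the array annotated to one of them alone. A probe set is a group of short probes that together give 1 value for a transcript. This gave 29 of 49293 non-control probe sets and covered 9 of the 10 genes, of 18132 genes in all with a probe set of their own. TCF7 had no probe set in the annotation used here and was not analysed.

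RNA was measured in HCT116, an established human epithelial cell line from a colorectal carcinoma, 72 h after infection with lentivirus (multiplicity of infection, 20). The shRAP1 culture received an shRNA named sh-RAP1-4# and the shNC culture a negative-control shRNA, and each was hybridised to 1 array. HCT116 carries mutant beta-catenin, so both cultures share it, and the knockdown rests on a single shRNA in a single culture. A difference is the log2 intensity in shRAP1 minus that in shNC throughout. Since a group is 1 array, there is no replicate error, no test and no p-value for any difference. The stated question was what RAP1 does in colorectal cancer cells.

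In the absence of Wnt, a destruction complex built on AXIN and APC marks beta-catenin for degradation. Wnt binding to Frizzled and LRP receptors stops this, and beta-catenin then enters the nucleus and switches on genes through TCF/LEF factors. Several of those target genes act back on the pathway at the ligand (NOTUM), at the receptors (DKK1, RNF43, ZNRF3), at dishevelled (NKD1) or in the destruction complex (AXIN2). Activating mutations of beta-catenin, which are found in colorectal tumours, act below the ligand and receptor steps. In the intestine LGR5, AXIN2 and RNF43 are known as Wnt targets of the crypt base.

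Sequence upstream of the annotated transcript start was available for 5 of the 10 genes, in 7 windows of 250 bases (RefSeq, GRCh38.p14). Shown are the windows of DKK1 and SP5, the member windows that hold a match to CTTTGA, a TCF/LEF core sequence. A window of RNF43, which holds no CTTTGA on either strand, is shown beside them. Capitals mark CTTTGA or, for a match on the opposite strand, its reverse complement TCAAAG. Each window runs 5′ to 3′ on the gene's own strand and ends at the base before the transcript start, so it holds no exon of that transcript.
DKK1, chr10:52314031-52314280, plus strand: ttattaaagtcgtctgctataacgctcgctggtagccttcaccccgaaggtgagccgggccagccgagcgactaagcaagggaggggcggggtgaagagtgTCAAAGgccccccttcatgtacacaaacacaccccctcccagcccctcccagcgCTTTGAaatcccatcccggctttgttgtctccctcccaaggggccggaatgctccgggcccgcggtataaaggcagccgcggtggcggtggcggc
SP5, chr2:170715087-170715336, plus strand: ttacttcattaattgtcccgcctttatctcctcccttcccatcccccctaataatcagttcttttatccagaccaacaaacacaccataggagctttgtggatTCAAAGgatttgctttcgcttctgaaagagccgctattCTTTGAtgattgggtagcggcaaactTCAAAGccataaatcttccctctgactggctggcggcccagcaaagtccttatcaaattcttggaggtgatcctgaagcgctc
RNF43, chr17:58417535-58417784, minus strand: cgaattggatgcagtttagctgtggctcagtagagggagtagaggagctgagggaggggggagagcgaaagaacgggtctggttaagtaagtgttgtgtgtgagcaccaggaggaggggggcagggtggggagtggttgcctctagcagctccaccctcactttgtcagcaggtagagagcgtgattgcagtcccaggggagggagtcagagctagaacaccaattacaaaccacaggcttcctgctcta

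The DKK1 window holds 2 matches, beginning 149 and 95 bases before the start. The SP5 window holds 3, beginning 147, 109 and 83 bases before it. The window printed for RNF43 belongs to the more upstream of its 2 annotated starts, and the window of the other start holds no match either. No match was found in the window of LEF1 or in the 2 windows of TCF7. Over all 35116 windows of this length, 11.2% held at least 1 match on either strand, 0.977% at least 2 and 0.0655% at least 3. Only CTTTGA was searched for. Related letters such as CTTTGT, which each printed window holds, were not counted. A match describes these letters, and no match says nothing about other letters or about a factor outside this window.

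The labels name the target only as RAP1, which can mean TERF2IP, RAP1A or RAP1B, so the target is not settled by them. TERF2IP, which encodes the telomere protein RAP1, stood at 624 in shRAP1 and 1311 in shNC on the linear intensity scale, or 47.6% of the control, on its 1 probe set. RAP1A and RAP1B, small GTPase genes that share the name, stood at 88.0% and 93.3%. Probe sets were counted as measured where the higher of the 2 values reached a floor of 78.0, the median of all non-control values. Of 8 colorectal epithelial markers 7 were past the floor, and VIL1 was below it at 11.1 in shRAP1 and 10.4 in shNC. All 4 leukocyte markers with a probe set and 6 of 7 fibroblast and endothelial markers were below the floor on both arrays, and VWF was past it at 125 in shRAP1 and 129 in shNC.

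Of the 9 genes with a probe set, 6 had at least 1 past the floor, and for each of these both arrays reached it. Taking the brightest such probe set of a gene, 4 genes were higher in shRAP1 (DKK1, NKD1, RNF43 and AXIN2) and 2 were lower (ZNRF3 and NOTUM). Among all 10437 genes past the floor, 53.2% were higher and 46.8% lower. The median over the 6 genes was 0.25, against 0.010 over all genes. DKK1 stood apart in size, and no other member reached a 1.5-fold difference. LGR5, LEF1 and SP5 were below the floor on every probe set.

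**Figure D1:**
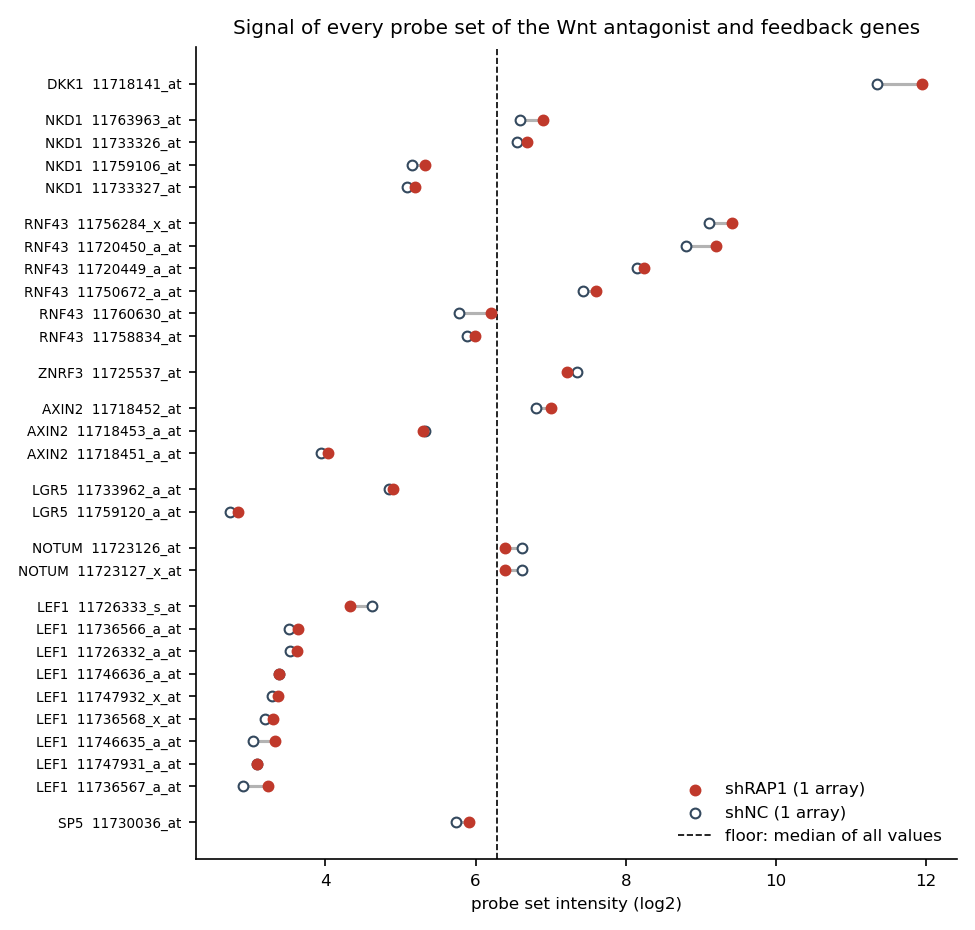
Intensity (log2) of all 29 member probe sets on the shRAP1 array (filled) and the shNC array (open), 1 row per probe set, with the floor as a dashed line. DKK1 lies far to the right of the floor with its shRAP1 value above its shNC value, and the 9 LEF1 probe sets lie far to the left of it. All 4 NKD1 and all 6 RNF43 probe sets have the shRAP1 point on the right. Only 2 of NKD1 and 4 of RNF43 are past the floor, and the rest bear no direction.

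DKK1 encodes a secreted protein that binds the co-receptors LRP5 and LRP6 and keeps them from forming a Wnt receptor complex. Its only probe set, 11718141_at, gave an intensity of 3959.8 in shRAP1 and 2609.9 in shNC. The difference was 0.60, a 1.52-fold higher signal in the shRAP1 culture. It ranked 19th highest among 10437 genes. In RNA from a whole culture, a change in the number of expressing cells and in the RNA per cell cannot be told apart. Spread was described by the SD of the differences of the 500 probe sets nearest in mean log2 value, which tells how much genes scatter and is no experimental error. For DKK1 this SD was 0.11 and the median of the same probe sets −0.031, so its difference was 5.62 times the SD in size. At 1.5-fold, 0.211% of all genes were counted as higher and 0.172% as lower. DKK1 was the 1 member counted and lay just past that size, which is 0.585 on the log2 scale, against 0.60. At 2-fold, 0.0192% of all genes were higher and 0.0192% lower, and no member was counted. On brightest probe sets, the nearest member inside 1.5-fold was NKD1 at 0.31. RNF43 was at 0.30, and its next brightest probe set was at 0.39.

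The other secreted antagonist is NOTUM, an extracellular enzyme that removes the lipid from Wnt ligands and so inactivates them. It gave 84.1 in shRAP1 and 98.3 in shNC, a difference of −0.22, so the secreted antagonists stood on opposite sides of 0. Its 2 probe sets held identical values and count as 1 measurement. Both values lay close to the floor, and the difference was 1.24 times the SD of probe sets of like brightness in size.

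RNF43 and ZNRF3 are related transmembrane ubiquitin ligases that remove Frizzled receptors from the cell surface, and R-spondins acting with LGR receptors block them. RNF43 was higher in shRAP1 on all 6 of its probe sets, 4 of them past the floor. The brightest, 11756284_x_at, gave 682 in shRAP1 and 554 in shNC, a difference of 0.30. The next, 11720450_a_at, gave 588 in shRAP1 and 448 in shNC, a difference of 0.39. These were 1.98 and 2.73 times the SD of probe sets of like brightness. The other probe sets past the floor were closer to the control, with 304 in shRAP1 and 283 in shNC (0.10) on one and 195 in shRAP1 and 173 in shNC (0.17) on the other. Below the floor, 1 probe set gave 74.1 in shRAP1 and 54.9 in shNC and the other 63.8 in shRAP1 and 59.2 in shNC. Past the floor, the size for RNF43 therefore ranged from 0.10 to 0.39, while the direction was shared. The largest difference, 0.43, came from a probe set below the floor on both arrays, where no direction can be read. Probe sets of a gene are read from the same RNA and are not replicates.

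ZNRF3 went the other way on its single probe set, with 149 in shRAP1 and 163 in shNC. The difference of −0.13 was 0.84 times the SD of probe sets of like brightness in size, so it was no larger than the usual spread between such genes. LGR5, the R-spondin receptor that marks intestinal stem cells, was below the floor on both probe sets. They gave 29.8 in shRAP1 and 28.8 in shNC on the brighter and 7.13 in shRAP1 and 6.65 in shNC on the dimmer. No level difference can be read for LGR5 at this brightness.

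**Figure D2:**
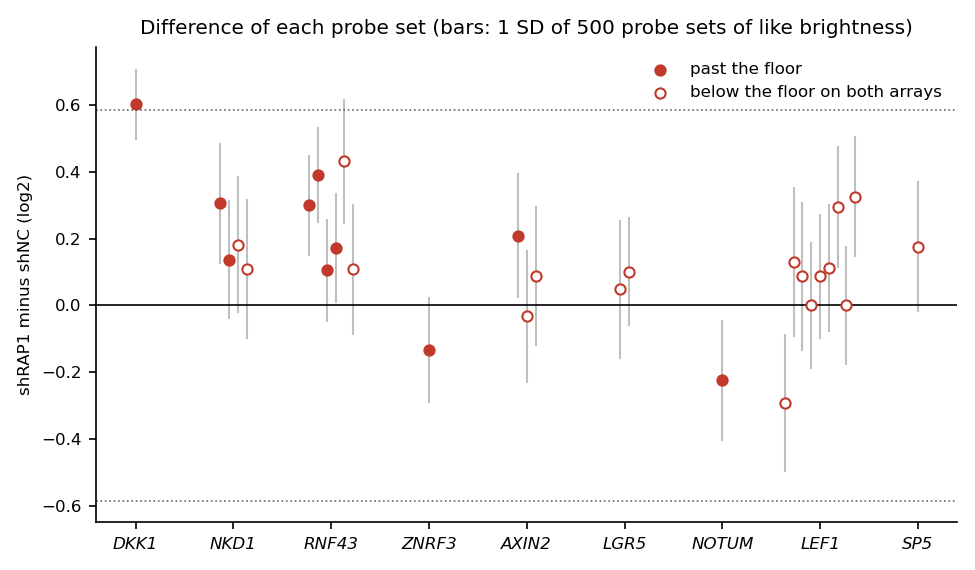
Difference (shRAP1 minus shNC, log2) of each member probe set, filled where past the floor and open where below it on both arrays, with bars of 1 SD of the 500 probe sets nearest in brightness and dotted lines at 1.5-fold. The 2 identical NOTUM probe sets are drawn once. DKK1 lies just above the upper dotted line at 0.60, RNF43 spreads from 0.10 to 0.43, and ZNRF3 and NOTUM lie below 0.

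NKD1 and AXIN2 act inside the cell. NKD1 binds dishevelled and dampens Wnt signalling, and all 4 of its probe sets were higher in shRAP1. Those past the floor gave 119.6 in shRAP1 and 96.8 in shNC (0.31) and 103 in shRAP1 and 93.9 in shNC (0.14). Those below it differed by 0.18 and 0.11. The brightest was 1.68 times the SD of probe sets of like brightness, and the others were under 1 SD. Past the floor NKD1 thus had a shared direction with sizes close to the common spread, and those below it bear no direction.

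AXIN2 is a scaffold of the destruction complex and a widely used readout of beta-catenin activity. Its 1 probe set past the floor, 11718452_at, gave 129 in shRAP1 and 111 in shNC. The difference of 0.21 was 1.12 times the SD of probe sets of like brightness. The probe sets below the floor gave 39.3 in shRAP1 and 40.2 in shNC, a difference of −0.033, and 16.4 in shRAP1 and 15.4 in shNC, a difference of 0.088. The AXIN2 difference therefore rests on 1 probe set near the floor.

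The transcription factors among the members were dim. LEF1, a partner of beta-catenin on DNA, was below the floor on all 9 probe sets. The brightest gave 20.1 in shRAP1 and 24.6 in shNC, and the other 8 lay between 8.54 and 12.4 in shRAP1 and between 7.50 and 11.6 in shNC. LEF1 differed by −0.29 on that brightest probe set and was above 0 on the other 8, by up to 0.32, all at values where no change can be read. SP5, a zinc finger factor that is itself a direct Wnt target, gave 60.3 in shRAP1 and 53.4 in shNC on its only probe set. That difference of 0.18 was 0.90 times the SD of probe sets of like brightness.

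Of the 18 member probe sets below the floor, 16 were higher in shRAP1, with a median difference of 0.10. Among all 24192 non-control probe sets below the floor, 55.3% were higher and the median was 0.024. Of these 18 probe sets 9 belong to LEF1 and some of those share a target transcript, so they are not separate observations.

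**Figure D3:**
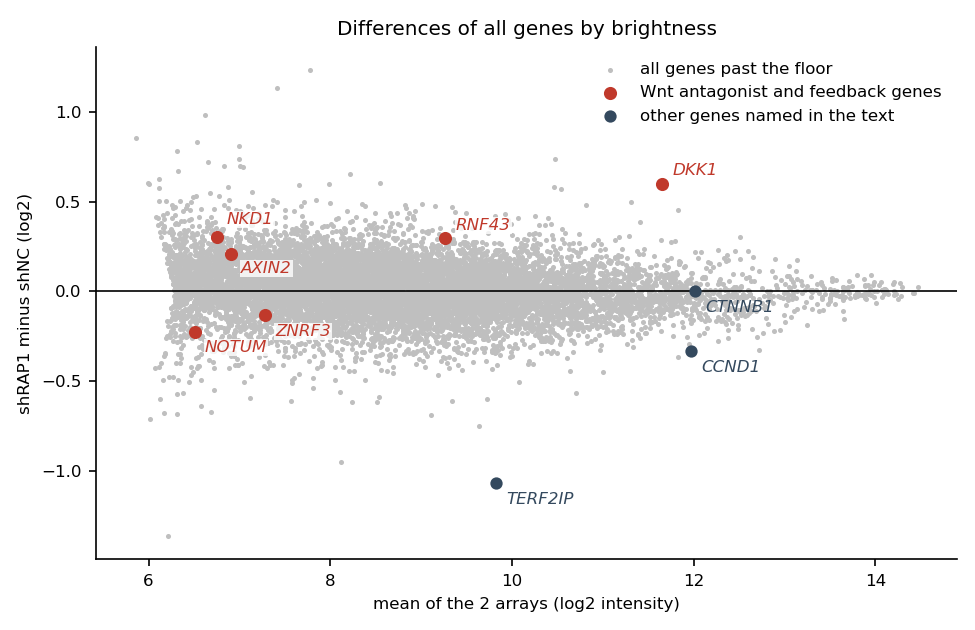
Difference (shRAP1 minus shNC, log2) against the mean of the 2 arrays (log2 intensity) for the 10437 genes past the floor, 1 point per gene. DKK1 stands clear of genes of like brightness at 0.60, and RNF43, NKD1, AXIN2, ZNRF3 and NOTUM lie within the cloud. CTNNB1 is at 0.0016, CCND1 at −0.33 and TERF2IP at −1.07.

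Of the core genes of the pathway, beta-catenin and TCF7L2 were close to the control and APC lay near the floor. CTNNB1, which encodes beta-catenin, gave 4128 in shRAP1 and 4123 in shNC on its brightest probe set, and its 8 probe sets differed by −0.0016 to 0.094. Transcript levels do not report the amount or the activity of the protein. TCF7L2, a TCF factor of the intestinal epithelium, was higher by 0.040 on its brightest probe set. Its 6 probe sets past the floor, of 7, lay between 0.014 and 0.19. The TCF7L2 probe set at 0.19 passed the floor only through shRAP1. APC, the tumour suppressor of the destruction complex, had 1 of 3 probe sets past the floor, with 71.7 in shRAP1 and 85.0 in shNC. It passed the floor only through shNC, so its presence among the measured genes is bound to its being lower. The APC difference of −0.25 was 1.35 times the SD of probe sets of like brightness in size.

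Wider lists of the pathway were set beside the members, each counted on genes past the floor and none with a gene at 1.5-fold. Each count stands beside 53.2% higher and 46.8% lower among all 10437 genes past the floor. Where both arrays had to reach the floor, 52.8% of all genes were higher, and with no floor 54.3%. Of 16 genes of dishevelled and the destruction complex, 10 stood higher and 6 lower (median 0.049). TNKS2, a tankyrase that marks AXIN proteins for degradation, gave 537 in shRAP1 and 384 in shNC, a difference of 0.48 on 1 probe set. AMER1, a membrane anchor of the complex, differed by 0.27, and its shNC value did not reach the floor. The median of this list was −0.0040 when each gene was the median of its probe sets past the floor.

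Of 21 receptor and R-spondin genes 12 were past the floor, 10 of them higher and 2 lower, with a median of 0.17. ROR1, a receptor of non-canonical Wnts, gave 162 in shRAP1 and 116 in shNC, a difference of 0.48. The Frizzled receptor gene FZD3 gave 173 in shRAP1 and 128 in shNC (0.44), its second probe set was at 0.079, and FZD4 differed by 0.21. The co-receptor genes LRP5 and LRP6, to which DKK1 binds, were at 0.17 and −0.012. With a higher floor, at the 75th percentile or a linear intensity of 312, the median of the receptor list was 0.027.

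Of 19 ligand genes with a probe set, counting the ligand carrier WLS, 8 were past the floor, 6 of them higher and 2 lower, with a median of 0.082. WNT16 gave 571 in shRAP1 and 418 in shNC, a difference of 0.45, and its 2 probe sets were at 0.45 and 0.40. WNT7B at 0.44 and WNT3A at 0.17 passed the floor only through their shRAP1 values. Where both arrays had to reach the floor, 4 ligand genes stood higher and 2 lower (median 0.028).

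Other antagonist genes were mostly dim, and 5 of 18 with a probe set were past the floor. KREMEN2, a receptor that acts with DKK1 on LRP co-receptors, gave 339.8 in shRAP1 and 259 in shNC, a difference of 0.39. Its relative KREMEN1 was at 0.19 and DKK3 at −0.028. TRABD2A, a protease that clips Wnt ligands, gave 97.1 in shRAP1 and 68.4 in shNC, and NKD2 gave 97.2 in shRAP1 and 76.7 in shNC. These 2 passed the floor only through shRAP1, so their presence in the count is bound to their being higher. With all 5 genes the count was 4 higher and 1 lower with a median of 0.34, and with both arrays at the floor it was 2 higher and 1 lower with a median of 0.19.

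Of 11 nuclear partners of beta-catenin past the floor, 8 stood higher and 3 lower (median 0.065). With both arrays at the floor, 7 stood higher and 3 lower (median 0.053). The co-repressor genes TLE1, TLE3 and TLE2 differed by 0.32, 0.27 and 0.19. The TLE1 value in shNC was below the floor, and TLE3 and TLE2 also had probe sets at −0.037 and −0.045. Of 9 other reported beta-catenin targets past the floor, 8 stood higher and 1 lower (median 0.12), beside 53.2% higher among all genes. With no floor the count was 12 higher and 6 lower. PLAUR, the urokinase receptor gene, differed by 0.34 with 5 probe sets between 0.17 and 0.40. ID2, an inhibitor of helix-loop-helix factors, differed by 0.32 and 0.42 on its 2 probe sets.

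Of the 9 reported targets past the floor, the 1 that stood lower was CCND1, which encodes cyclin D1 of the G1 phase. It gave 3568 in shRAP1 and 4493 in shNC, a difference of −0.33, and its 4 probe sets ran from −0.37 to −0.067. This was 3.02 times the SD of probe sets of like brightness in size. The proto-oncogene MYC was at 0.11, with 6992 in shRAP1 and 6467 in shNC, and the surface receptor gene CD44 at 0.0076. CCND1 thus lay below 0, and MYC, DKK1 and AXIN2 above it. The MYC difference was close to the SD of probe sets of like brightness, 0.10, and that of AXIN2 was 1.12 times its SD. SOX9 at 0.10, EPHB3 at 0.12 and CD44 lay within their SDs of 0.13, 0.18 and 0.11. BMP4 at 0.16 and JUN at 0.22 lay past theirs, 0.13 and 0.15.

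**Figure D4:**
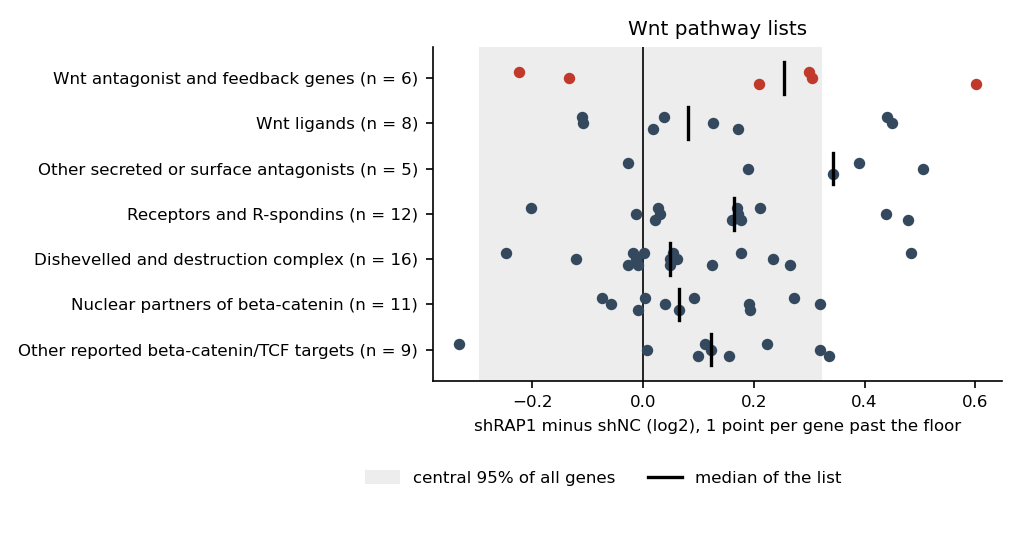
Differences (shRAP1 minus shNC, log2) of genes past the floor, 1 point per gene, for the Wnt antagonist and feedback genes (red, top) and 6 other pathway lists, with the list median as a black bar and the central 95% of all genes shaded from −0.29 to 0.32. The medians run from 0.049 for the destruction complex to 0.34 for other antagonists, and CCND1 is the point farthest to the left.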

How the data were processed

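The deposited values are 1 probe set intensity per array on the linear scale, and per the submitters' processing notes they come from RMA (background correction, quantile normalisation, summary over probes). For RMA, the version and the arrays run in 1 batch are not stated in the sources used here. Quantile normalisation removes differences in total RNA, so every difference is relative to the other genes. Both arrays reach 25726, which set the scale as linear, and log2 was taken with no pseudocount.

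Symbols came from the platform annotation: 44988 probe sets carried 1 symbol, 1832 several and 2473 none, with 102 array controls aside, and only single-symbol probe sets were used. A gene was its brightest probe set past the floor. From each of the 6 pathway lists the 3 genes with the largest difference in size were named, with TERF2IP, RAP1A, RAP1B, CTNNB1, APC and TCF7L2. Other genes named were chosen after their values were seen. The members and lists were chosen with earlier results of these data known. The number of arrays limits the precision. Alternatives changed the floor, the probe sets admitted, the summary per gene, the centring (lowess, span 0.3), a pseudocount of 50, the size counted and the number of neighbours behind the SD. The computation was tested on simulated data with planted shifts larger than any member difference, counted at 2-fold, so smaller sizes were not tried. The tools were pandas 2.3.3, numpy 2.4.6 and statsmodels 0.14.6 under Python 3.11.15.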

Additional observations from a re-analysis of the deposited data

How the results depend on the processing

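With 1 culture per group, no error between cultures can be given, and a difference may belong to the culture, the array or the shRNA, which cannot be told apart. Of the members, DKK1, NKD1, RNF43, AXIN2, ZNRF3 and NOTUM kept their direction under every setting run that gave them a value (38 values). Many of these values repeat the main one, because the same probe set was still used. For DKK1, AXIN2, ZNRF3 and NOTUM only the lowess centring and the pseudocount changed the value. The shared direction is therefore in large part built in. DKK1 ran from 0.59 with a pseudocount of 50 to 0.63 with lowess centring, and with 200 neighbours the SD beside it was 0.098. With the floor at the 75th percentile, where DKK1 and RNF43 alone are left, 2 members stood higher and 0 lower (median 0.45). Among all 6274 genes past that floor, 47.8% were higher (median −0.0070). At 1.5-fold 1 member was counted, against 0 at 2-fold. With no floor, 6 members were higher and 3 lower, beside 54.3% higher among all 18132 genes. Values near or below the floor limit the members other than DKK1 and RNF43, and a pseudocount of 50 brought NKD1 to 0.21, AXIN2 to 0.15 and NOTUM to −0.14. Of 126 values of the pathway lists, 26 left the range of 0.1 on the log2 scale for a median or 1.5 times for a count, and the median of the other antagonists was −0.024 with no floor. No paired analysis was possible because each group holds 1 array. All settings were planned, but the members and lists had been chosen with earlier results of these data known.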
